A study of Mus musculus with 3 samples.

Results

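MEF2, SRF and the myocardin family are transcription factors and coactivators of muscle genes, encoded here by 8 genes: Mef2a, Mef2b, Mef2c, Mef2d, Srf, Myocd, Mkl1 and Mkl2. NKX2-5 ChIP-seq peaks were assigned to these genes when the midpoint of the peak lay within 100 kb of the gene body in mm9. By that rule 8 of 4418 peaks of library S1 and 13 of 5441 peaks of library S4 belonged to the 8 genes, a mean of 10.5 ± 3.54 peaks per library (SD, n = 2). Overlapping peaks of the libraries were joined, which gave 16 regions of 7249 in all, and 5 of the 16 were found in both libraries, of 2546 shared regions in all. The 2 libraries were both made from hearts of wild-type Parkes mouse embryos at E11.5 with an antibody against NKX2-5. There was no second condition to compare, and an Input library of E11.5 heart was not analysed here. The labels do not say whether S1 and S4 came from separate pools of hearts, and the peak lists hold no expression values against which the tissue could be checked.

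NKX2-5 is a homeobox transcription factor required for heart development. MEF2 proteins bind an A/T-rich site and switch on muscle genes, usually once class IIa histone deacetylases have left them. SRF binds the CArG box and takes its instructions from partners. Myocardin is a potent partner of SRF in the heart and in smooth muscle, whereas the myocardin-related factors encoded by Mkl1 and Mkl2 are held in the cytoplasm by monomeric actin and enter the nucleus when actin polymerises. NKX2-5 and these factors meet on many cardiac enhancers, so the position of NKX2-5 around their own genes is of interest.

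NKX2-5 peaks were listed near 7 of the 8 genes, and near 3 of them in both libraries. Myocd had 3 shared regions, a pair of them in intron 6 and another upstream of the gene. Mkl1 had 1 shared region, deep in the gene, which carried the highest scores of the 16. Mef2d had 1, just past its end and with low scores. Mef2a, Mef2b, Mef2c and Mkl2 had peaks in 1 library only, and Srf had none. The score of each peak is −10 × log10 of the p-value from the peak caller, computed within 1 library, so a larger score means a smaller p-value. The lowest deposited scores were 140.01 in S1 and 140.02 in S4.

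**Figure D1:**
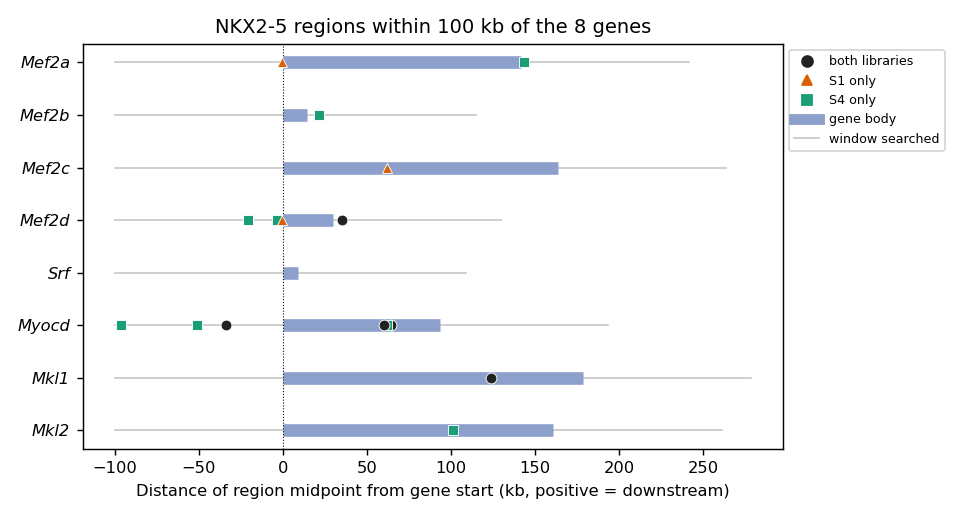
NKX2-5 regions around the 8 genes, plotted by the distance of the region midpoint from the gene start in kb, with transcription running to the right. Bars are gene bodies, thin lines the windows searched, circles regions of both libraries, triangles regions of S1 only and squares regions of S4 only. Myocd holds 6 regions, Mef2d 4, Mef2a 2, and Mef2b, Mef2c, Mkl1 and Mkl2 1 each, and the Srf line is empty.

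The sequences under the 5 shared regions are printed first, since they carry the motifs described with each gene. Each is a window of 201 bp centred on the stretch that the S1 and S4 peaks have in common, read from mm9 on the plus strand. Capitals mark, on either strand, the NKX2-5 core TNAAGTG, the MEIS core TGACA, the spaced pair GTGNTGACA and the overlapping pair AAGTGACA, where N is any base. Motif positions below are those of the centre of the motif relative to that of the window, counted along the plus strand. The motif AAGTGACA was added to the search after the sequences had been seen.
Mkl1 region 1, chr15:80897305-80897505, plus strand: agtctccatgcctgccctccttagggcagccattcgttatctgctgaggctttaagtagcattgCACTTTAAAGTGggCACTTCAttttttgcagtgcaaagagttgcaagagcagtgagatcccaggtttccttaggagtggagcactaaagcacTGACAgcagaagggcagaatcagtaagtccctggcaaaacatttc
Myocd region 1, chr11:65018830-65019030, plus strand: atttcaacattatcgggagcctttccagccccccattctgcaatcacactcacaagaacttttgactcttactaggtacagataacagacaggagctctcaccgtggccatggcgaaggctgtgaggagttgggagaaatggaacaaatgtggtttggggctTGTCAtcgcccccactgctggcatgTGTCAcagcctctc
Myocd region 3, chr11:65023043-65023243, plus strand: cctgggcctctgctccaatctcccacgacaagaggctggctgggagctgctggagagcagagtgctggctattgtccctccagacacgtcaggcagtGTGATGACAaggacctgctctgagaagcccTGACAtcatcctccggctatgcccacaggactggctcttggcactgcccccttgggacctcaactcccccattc
Myocd region 4, chr11:65117337-65117537, plus strand: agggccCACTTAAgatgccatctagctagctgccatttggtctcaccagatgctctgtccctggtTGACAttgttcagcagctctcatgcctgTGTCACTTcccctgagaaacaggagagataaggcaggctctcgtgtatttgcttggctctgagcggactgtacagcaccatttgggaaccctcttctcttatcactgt
Mef2d region 4, chr3:87981645-87981845, plus strand: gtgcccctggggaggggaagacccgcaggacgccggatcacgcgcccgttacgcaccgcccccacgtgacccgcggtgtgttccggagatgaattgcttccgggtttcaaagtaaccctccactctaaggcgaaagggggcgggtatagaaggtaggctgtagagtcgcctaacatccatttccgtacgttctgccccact
The NKX2-5 core was held by the windows of Mkl1 region 1 and Myocd region 4. The spaced pair was held by Myocd region 3, and the Mef2d window held none of the capitalised motifs.

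Among regions of 1 library only, 4 windows are shown because they lie near MEF2 genes and hold AAGTG, 3 of them within the NKX2-5 core. In these, the midpoint is that of the single peak.
Mef2d region 1, chr3:87925503-87925703, plus strand: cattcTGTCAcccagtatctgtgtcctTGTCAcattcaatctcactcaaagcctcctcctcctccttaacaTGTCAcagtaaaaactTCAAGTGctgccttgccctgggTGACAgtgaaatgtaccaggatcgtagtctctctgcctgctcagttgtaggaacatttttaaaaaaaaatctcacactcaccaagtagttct
Mef2d region 3, chr3:87945574-87945774, plus strand: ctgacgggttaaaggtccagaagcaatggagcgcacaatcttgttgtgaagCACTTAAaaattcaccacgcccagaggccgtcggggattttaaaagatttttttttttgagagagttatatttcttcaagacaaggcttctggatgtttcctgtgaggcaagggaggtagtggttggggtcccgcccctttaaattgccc
Mef2c region 1, chr13:83704913-83705113, plus strand: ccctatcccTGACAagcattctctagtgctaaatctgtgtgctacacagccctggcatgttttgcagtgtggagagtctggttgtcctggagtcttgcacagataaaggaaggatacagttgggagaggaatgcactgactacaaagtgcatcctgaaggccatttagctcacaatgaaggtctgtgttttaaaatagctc
Mef2b region 1, chr8:72698119-72698319, plus strand: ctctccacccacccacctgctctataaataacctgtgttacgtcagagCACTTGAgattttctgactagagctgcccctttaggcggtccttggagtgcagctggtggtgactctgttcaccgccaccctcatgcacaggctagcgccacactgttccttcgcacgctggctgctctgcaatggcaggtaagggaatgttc
Mef2d regions 1 and 3 and Mef2b region 1 held the NKX2-5 core, and the Mef2c window held AAGTG without the preceding bases of the core. The other 3 single-library windows near MEF2 genes, Mef2a regions 1 and 2 and Mef2d region 2, held no AAGTG. Around all the genes studied, AAGTG was in 7 of 11 single-library windows, against 54.6% of all windows of 1 library. For 11 windows, a count of 7 is near this share. The printed windows were chosen for holding AAGTG, so their matches are a description and not a result about MEF2 genes. Both Mef2a windows held 1 TGACA, and that of region 1 also held GGTGTG.

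Over the 8 genes, 7 of 8 had a region of either library, against 52.9% of all 22380 protein-coding genes by the same rule. That background is not matched for gene length, so the count is a description and not a result about these genes. A shared region was found near 3 of 8, or 37.5% with an exact Clopper-Pearson interval of 8.52% to 75.5%, against 24.2% of all protein-coding genes and 27.5% of those at least as long as the shortest member. The background lies well inside this interval, so the share of genes with a shared region is not a result about these genes. Length sets the width of the window, and the median gene length was 118 kb for the 8 genes and 15.4 kb for all protein-coding genes. Per 100 kb of window searched, the 8 genes had 0.669 regions and 0.209 shared regions, and all protein-coding genes had 0.447 and 0.14. The members were uneven, from 0 regions per 100 kb at Srf and 0.264 at Mkl1 to 1.74 at Mef2d and 2.04 at Myocd. Myocd alone held 3 of the 5 shared regions, so these densities do not describe the 8 genes as a set. Of the 8 S1 peaks, 5 had an S4 partner, or 62.5% with an interval of 24.5% to 91.5%, against 58.9% of all S1 peaks. Of the 13 S4 peaks, 5 had an S1 partner, or 38.5% with an interval of 13.9% to 68.4%, against 47.0% of all S4 peaks. These intervals cover counting error only, and peaks near the same gene are not independent.

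The 5 shared regions scored 146.67 to 1004.66 in S1, with a median of 226.1, and 163.07 to 806.73 in S4, with a median of 314.7. Over all shared regions the medians were 280.3 in S1 and 315.2 in S4. The score was higher in S4 at 3 of the 5, and the log2 ratio of S4 to S1 had a median of 0.07 and ran from -0.32 to 0.98, against a median of 0.16 over all shared regions. The 3 regions of S1 only scored 171.27 to 259.29, and the 8 of S4 only scored 159.42 to 366.85. These ranges overlapped those of the shared regions. Scores are not scaled between libraries and the read depth is unknown, so a ratio of scores is a description of the lists.

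**Figure D2:**
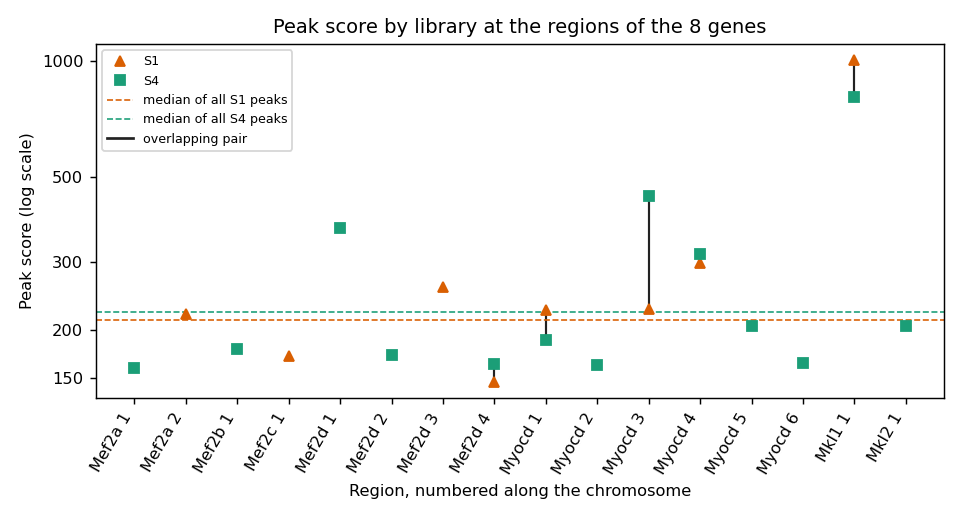
Peak score in S1 (triangles) and S4 (squares) at the 16 regions on a log axis, with a line joining the pair of an overlapping region and dashed lines at the median score of all peaks, 211.8 in S1 and 223.2 in S4. Mkl1 region 1 stands above all others in both libraries, and Mef2d region 4 has both scores below the dashed lines.

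MEF2 factors were taken first. Mef2a, on chr7:74376049-74517744 and read from the minus strand, encodes a MEF2 factor of skeletal and cardiac muscle. Its first region was an S4 peak at chr7:74373701-74374300 (score 159.42, width 600 bp), 2.05 kb past the end of the gene and 6.51 kb from the start of Lysmd4. Its other region was an S1 peak at chr7:74517625-74518300 (score 219.99, width 676 bp), and it covered the annotated start of Mef2a. Its midpoint lay 218 bp upstream of that start. The peaks stood at opposite ends of the gene, and neither had a counterpart in the other library. The S1 peak ranked in the top 47.0% of its list and the S4 peak in the top 81.2%.

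Mef2b, a MEF2 gene on chr8:72676677-72691387, had a single S4 peak at chr8:72697811-72698627 (score 178.56, width 817 bp). The midpoint was 6.83 kb past the gene but 17 bp from a transcript start of Tmem161a, in an exon of that gene. Its window held the NKX2-5 core 49 bp before the midpoint and a MEF2 site, matched by name on the A/T-rich consensus. Of the 16 windows this was the only one with a MEF2 site, against 4.36% of all shared windows and 3.4% of all windows of 1 library. The Mef2b window of 100 kb held 10 other protein-coding starts, more than that of any other member, so a peak there can be given to many genes.

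Mef2c, on chr13:83643033-83806684, encodes the MEF2 factor that the early mouse heart tube requires. It had 1 peak, found in S1 only, at chr13:83704688-83705338 (score 171.27, width 651 bp). This ranked in the top 69.9% of S1 peaks. The peak lay in intron 2 of its transcript with the most exons, 62 kb downstream of the gene start and 41 kb from another Mef2c transcript start. Its window held AAGTG and TGACA. It also held the core of GATA factors, GATAA, and that of TEAD factors, CATTCC. The nearest S4 peak was 967 kb from the Mef2c body, a distance that 9.14% of protein-coding genes matched or exceeded. The nearest shared region was 1065 kb away, matched or exceeded by 18.3% of protein-coding genes. No other protein-coding start lay within the Mef2c window, and the window held 1 peak of 1 library.

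Mef2d, on chr3:87946294-87976008, encodes a MEF2 factor made in most tissues, and it had more regions than the other MEF2 genes. Region 1 was an S4 peak at chr3:87925188-87926018, 20.7 kb upstream (score 366.85, width 831 bp). It had the highest score of the 11 single-library peaks around the 8 genes and ranked in the top 22.2% of S4 peaks. Its window held the NKX2-5 core 10 bp before the midpoint and 4 copies of TGACA. At least 4 copies, a threshold equal to the count of this window, were held by 1.49% of all windows of 1 library.

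Regions 2 and 3 of Mef2d lay upstream of its start without overlapping. Region 2 was an S4 peak at chr3:87942330-87943012 with a score of 172.35, centred 3.62 kb upstream of the start, and its window held no motif of the list. Region 3 was an S1 peak at chr3:87945211-87946137 (score 259.29, width 927 bp), centred 0.62 kb upstream of the start. It had the highest score of the 3 S1-only peaks and held the NKX2-5 core 46 bp before the midpoint. The gap between the peaks was 2198 bp, so the libraries listed different stretches upstream of the same start.

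Region 4 of Mef2d was shared. The S1 peak was chr3:87981478-87982013 (score 146.67, width 536 bp), and the S4 peak was chr3:87981446-87982149 (score 163.07, width 704 bp). The S1 peak lay wholly inside the S4 peak and covered 76.1% of it. Both scores were low in their lists, in the top 92.2% of S1 and the top 78.6% of S4. The midpoint was 5.74 kb past the end of Mef2d and 38 bp from the start of the long noncoding RNA 1700113A16Rik. The window had 61.2% GC, against a median of 49.8% over all shared windows, and held only the T-box core GGTGTG among the motifs searched.

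Srf, on chr17:46683788-46693111, encodes the factor through which the myocardin family acts. Neither library listed a peak within 100 kb of it. The nearest was an S4 peak at chr17:46810940-46811591, 118 kb from the gene body, with a score of 201.68 and nearest to the start of Rrp36. For S4, 51.7% of protein-coding genes had their nearest peak at least as far away. The nearest S1 peak and the nearest shared region were both 307 kb away, which 34% of genes for S1 and 51.3% for shared regions matched or exceeded. Srf, at 9.32 kb, is the shortest of the 8 genes and so had the shortest window, and a peak under the lowest deposited score would not be listed.

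Among the coactivators, Myocd on chr11:64990063-65083491 and read from the minus strand had the most regions, 6, with 3 S1 peaks and 6 S4 peaks. All 3 S1 peaks had an S4 partner. At least 3 shared regions, a threshold equal to the count of Myocd, were found near 2.07% of protein-coding genes. All protein-coding genes had a median length of 15.4 kb, and Myocd is 93.4 kb long. The share is therefore a description and not a measure of how unusual Myocd is. The 6 regions fell into a cluster of 3 in intron 6 of the Myocd transcript with the most exons, 14, and a set of 3 upstream of the gene.

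Myocd region 1 was shared, with the S1 peak at chr11:65018537-65019427 and the S4 peak at chr11:65018381-65019324. The scores were 225.43 and 188.11 and the widths 891 and 944 bp, and the overlap of 788 bp was 88.4% of the S1 peak and 83.5% of the S4 peak. It lay 64.6 kb downstream of the gene start and 39 bp from the start of a short Myocd transcript annotated as protein coding. By gene starts, the nearest protein-coding one was that of Arhgap44, 42.5 kb away. Its window held 2 copies of TGACA and 2 of GATAA, and no AAGTG.

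Myocd region 3 lay 60.3 kb downstream of the gene start in the same intron. Again the nearest protein-coding gene start was that of Arhgap44, 46.7 kb away. The S1 peak was chr11:65022713-65023573, with a score of 226.07, and the S4 peak was chr11:65022683-65023801, with a score of 446.45. The S1 score was near the median of its list, in the top 45.0%, whereas the S4 score was in the top 16.1%. The log2 ratio of S4 to S1 was 0.98, the widest gap between libraries among the 5 shared regions. The S1 peak of 861 bp lay inside the S4 peak of 1119 bp. The spaced pair GTGNTGACA, in which a MEIS core follows part of the NKX2-5 core, was centred 1 bp from the midpoint of the shared stretch. This motif was held by 9.54% of all shared windows.

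Between these, S4 alone listed region 2 at chr11:65021222-65022166, with a score of 162.62 and the NKX2-5 core 14 bp after its midpoint. The gap to the nearest S1 peak was 547 bp. Here too the nearest protein-coding gene start was that of Arhgap44, 45.2 kb away. The midpoints of regions 1 to 3 were spaced by 2.76 kb and 1.45 kb, so intron 6 held the 3 closest regions around any of the 8 genes.

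**Figure D3:**
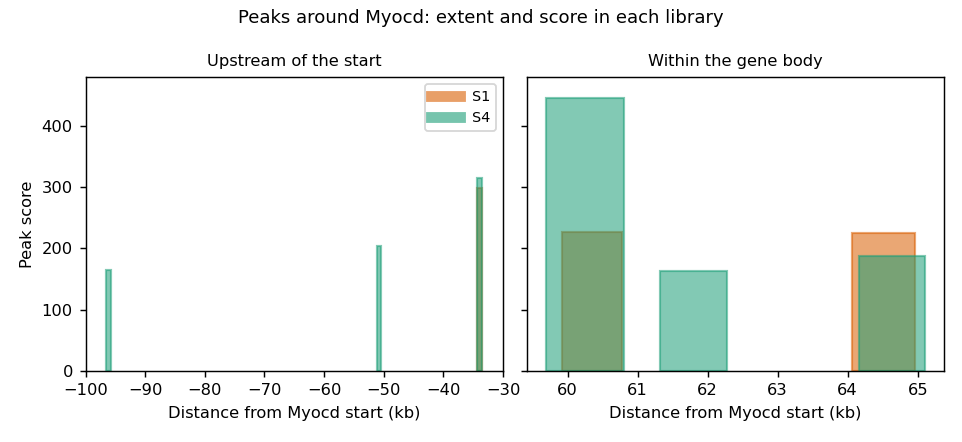
Peaks around Myocd, with the horizontal extent of each bar showing the peak and its height the score, in S1 (orange) and S4 (green), against distance from the gene start in kb. The left panel holds the upstream peaks and the right panel those in intron 6, where S4 reaches 446.45 at region 3 and S1 stays at 226.07 and 225.43.

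Upstream of Myocd, region 4 was shared, with the S1 peak at chr11:65116983-65117892 and the S4 peak at chr11:65117067-65117808. Its scores were close, 298.86 in S1 and 314.7 in S4, in the top 28.9% and 28.3% of their lists. It lay 33.9 kb upstream of the start, in an intron of the long noncoding RNA Gm12295. The S4 peak of 742 bp lay inside the S1 peak of 910 bp. The window held the NKX2-5 core 91 bp before the midpoint, and AAGTGACA, in which the last bases of AAGTG and the first of TGACA are the same, 3.5 bp before it. AAGTGACA was held by 2.36% of all shared windows and by 2.25% of all windows of 1 library. It was added to the search after this sequence had been seen, so these shares do not measure how unusual the match is.

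Regions 5 and 6 of Myocd were S4 peaks. Region 5, at chr11:65133931-65134606, lay 50.8 kb upstream with a score of 204.39, and region 6, at chr11:65179146-65180062, lay 96.1 kb upstream with a score of 164.45. Both were under the median score of S4 peaks. Region 6 was 304 bp from a start of Gm12295 and held the NKX2-5 core 28 bp before its midpoint.

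In the number of S1 peaks, S4 peaks and shared regions, 11 protein-coding genes were identical to Myocd, at a Euclidean distance of 0 over these 3 counts. The 3 closest to it in length were Lrrfip2, of 108 kb, Tdrd7, of 69.4 kb, and Zdhhc13, of 38.4 kb.

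Mkl1, on chr15:80842711-81021187 and read from the minus strand, encodes myocardin-related transcription factor A, the actin-sensing partner of SRF. Its single region was shared, with the S1 peak at chr15:80896783-80897668 and the S4 peak at chr15:80897142-80897840. The scores were 1004.66 in S1 and 806.73 in S4, in the top 3.21% and top 5.77% of their lists. The peaks overlapped by 527 bp, 59.5% of the S1 peak and 75.4% of the S4 peak, the least complete overlap of the 5. The region lay in intron 3 of a transcript of 15 exons, 124 kb downstream of the start, and the nearest protein-coding gene start was that of Sgsm3, 89.2 kb away. It was 21.4 kb from the start of another Mkl1 transcript.

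The Mkl1 window held 3 NKX2-5 cores within 21 bp, chr15:80897369-80897389. The first pair stood in opposite orientations and shared 2 bases, as CACTTTAAAGTG, an arrangement that was noticed after the sequence had been seen. At least 3 cores in a window were found in 0.786% of shared windows. That threshold equals the count of this window, so the share is a description and not a measure of how unusual it is. The first core was 33 bp before the midpoint, and TGACA followed 58 bp after it.

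Mkl2, on chr16:13256574-13417622, encodes myocardin-related transcription factor B. It had 1 S4 peak at chr16:13357586-13358484 (score 204.38, width 899 bp), in the top 56.7% of S4 peaks. The peak lay in intron 3 of a transcript of 17 exons, 101 kb downstream of the gene start and 479 bp from the start of a shorter Mkl2 transcript. The window held CATTCC and no other motif of the list. The nearest S1 peak was 254 kb from the gene body, so the paralogues Mkl1 and Mkl2, of similar length, differed from a shared region of high score to a single peak of S4.

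Motifs were then compared over the 5 shared windows. TNAAGTG or GTGNTGACA was found in 3 of 5, against 39.1% of all shared windows. With 25 bp on each side it was 2 of 5, against 11.4%, and with 200 bp 3 of 5, against 53.8%. Over the whole shared stretch, or with AAGTG in place of TNAAGTG, it was again 3 of 5, against 61.6% and 67.1%. For 5 windows, a count of 3 is near both of these shares. TGACA was found in 4 of 5, against 64.6%, AAGTG in 2 of 5, against 64%, and GATAA in 3 of 5, against 35.2%. No shared window held CATTCC, a MEF2 site or a CArG box, which were in 15.1%, 4.36% and 1.06% of all shared windows. In the 11 windows of 1 library only, TNAAGTG was found in 5, against 24% of all such windows, and TGACA in 4, against 50.4%. GATAA was found in 3 of the 11, against 29.3%, and GTGNTGACA in 0, against 4.81%. With 5 and 11 windows, these counts describe the loci and a match is not evidence of binding.

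**Figure D4:**
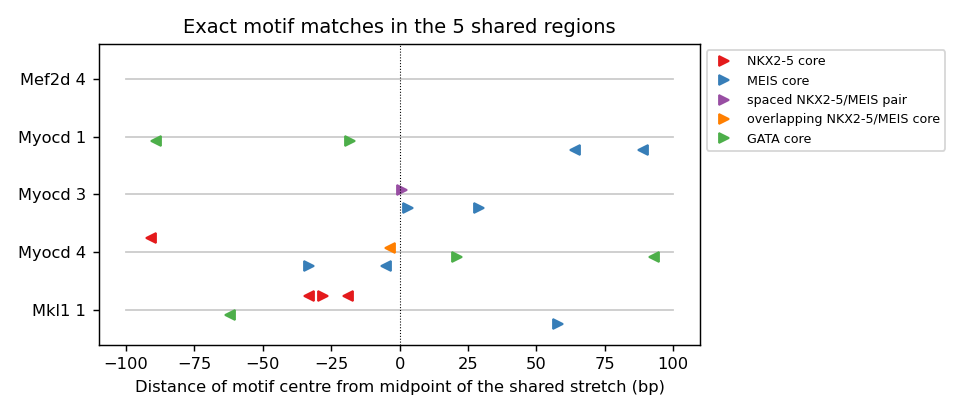
Exact motif matches in the 5 shared windows by distance from the midpoint of the shared stretch in bp, with arrowheads giving the strand. The Mkl1 window has 3 NKX2-5 cores to the left of the midpoint, the spaced pair of Myocd region 3 is centred 1 bp from it, and the Mef2d line has no match of these 5 motifs.

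In place, 7 of the 16 midpoints lay within 1 kb of an annotated transcript start, 2 of them in shared regions. These were the starts of Mef2a, Mef2d, a short Myocd transcript, a short Mkl2 transcript, Tmem161a, 1700113A16Rik and Gm12295, so 3 of the 7 belonged to a neighbour. The other 3 shared regions were intronic, Myocd region 4 only through the noncoding Gm12295, and no shared region was intergenic. For all shared regions the shares were 17.1% promoter, 40.7% intronic and 39.1% intergenic. These are not like for like, since the rule admits only regions within 100 kb of a member's body, and shared regions in all have no such limit. Of the 16 regions, 6 were inside the body of the member, and 10 had a member's start as the nearest protein-coding gene start. The nearest start names a neighbour and not a regulated gene.

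A list of 32 genes that act with or through these factors was read by the same rule. A shared region was found near 14 of 32, or 43.8%, against the 24.2% of all protein-coding genes given above. The median length of the list was 40.9 kb, and it had 0.23 shared regions per 100 kb of window, against 0.14 for all protein-coding genes. Of the 25 listed genes at least as long as Srf, 10 had a shared region, against the 27.5% given above. The list was chosen with earlier results known, so these counts are a description. Another 12 had peaks in 1 library only, and 6 had none, Elk1, Elk4, Prkd1, Tagln, Cnn1 and Xirp2.

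Both SRF cofactors had shared regions. Fhl2, a LIM protein that can hold SRF back, had the highest-scoring region of the list, scoring 1321.12 (S1) and 1574.82 (S4), and it lay 83.9 kb upstream. Hopx, a homeodomain-only antagonist of SRF, had scores of 717.67 and 930.94 in an intergenic region 15.3 kb upstream, where the nearest protein-coding gene start was Gm15831. Among class IIa histone deacetylases, which bind and repress MEF2, 2 of 4 had a shared region. The region of Hdac7 scored 507.63 and 440.08, and that of Hdac9 scored 490.62 and 441.96 in an intron whose nearest protein-coding gene start was Twist1.

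MEF2 kinases and coactivators had shared regions near 4 of 7, including Camk2d, a kinase that drives deacetylases out of the nucleus, with scores of 534.9 and 499.35, and Vgll2, a coactivator that joins TEAD and MEF2 factors, with 312.13 and 253.68. MEF2 or SRF target genes had them near 4 of 9, including Fos, with 686.55 and 552.67, and Smyd1, a muscle methyltransferase, with 549.1 and 414.88. The Smyd1 region lay 59.7 kb downstream of the Smyd1 start, within 1 kb of a transcript start, and the nearest protein-coding gene start was Krcc1. Of the ternary complex factors, which compete with the myocardin family for SRF, Elk3 alone of 3 had a shared region, at 184.32 and 156.74.

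**Figure D5:**
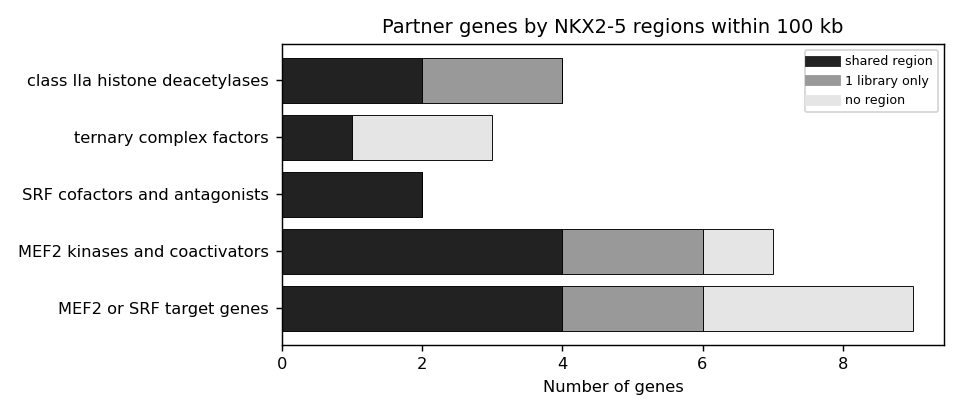
Number of partner genes in each of 5 functional groups with a shared region, with peaks of 1 library only, or with no region within 100 kb of the gene body. Both SRF cofactors have a shared region, and the ternary complex factors have 1 gene of 3 with one.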

How the data were processed

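NKX2-5 ChIP-seq was done on E11.5 mouse hearts. Per the labels and the methods of the study, reads were aligned to mm9 with Bowtie, peaks were called with MACS 1.4 in each library, and CASAVA 1.4 is named in the submitters' processing notes. The Bowtie version and the settings are not given in the sources used here. For each library the authors deposited a list of peaks, whose score is read from its values as −10 times the log10 of the p-value, and whose deposited start and end positions are in bp. Summits and read numbers were not used, so depth and the precision of a score are unknown.

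Members, partner list, motifs and settings were chosen with earlier results of these data known. Peaks, in coordinates counted from 1, were paired at an overlap of at least 1 bp and assigned by midpoint to gene bodies of GENCODE M1 (mm9). A midpoint within 1 kb of any annotated transcript start was a promoter. Motifs were exact matches on both strands in 201 bp, where TNAAGTG contains AAGTG, and GTGNTGACA and AAGTGACA contain TGACA. Genes were named by rule, namely all members, every shared region, the strongest peak of 1 library per member and library, the nearest protein-coding starts and, per partner group, the 2 strongest shared regions. Of the partner list, 1 functional group counts in the totals and is otherwise not reported here. The other single-library regions of Mef2d and Myocd were described in addition. No test was run, since there is 1 condition, and intervals are exact Clopper-Pearson intervals at 0.95. Counting was tested on simulated data and against bedtools 2.31.1, using Python 3.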

Additional observations from a re-analysis of the deposited data

How the results depend on the processing

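Of 128 recomputed values, 110 moved by less than the limit used to call a change and 18 moved. The limit was a set fold change for counts, the exact interval of the main value for shares and the SD over pairs for the ratio. For results of a comparison, 52 stayed within it and 12 moved. For single members, 58 stayed and 6 moved, and many of those that stayed were counts of 0 at every setting, so the tally overstates stability. Within 200 kb in place of 100 kb, the mean number of peaks per library was 17.5, regions 27, shared regions 8 and genes with a shared region 5, and Mef2a and Mef2b each had 1. With a score of at least 200, there were 6 peaks, 9 regions and 3 shared regions, and Mef2d had 0. With only peaks whose nearest protein-coding start was that of the member, there were 6 peaks, 10 regions and 2 shared regions, with Myocd at 1 and Mkl1 at 0. Mkl1 also had 0 when midpoints had to lie within 150 bp. Within 10 kb, partner genes with a shared region numbered 5. The median log2 ratio was then -0.05 in place of 0.07, which stayed within the limit. With 1 library left out, peaks and regions ran from 8 to 13. Narrower and wider windows differ in the length searched. The share of all protein-coding genes is given here within 100 kb only. The counts of genes at 200 kb and 10 kb therefore have no background beside them and are not a result about these genes. For the remaining changes the cause was not tested. No paired analysis was possible because the 2 libraries belong to 1 condition and no test was run. Depth is unknown, so an unlisted peak is not shown to be absent.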

Other observations

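Beyond 100 kb, widening the window to 200 kb added 11 regions, 3 of them shared. The shared region chr11:65235069-65235934, scoring 269.0 (S1) and 264.07 (S4), lay 152 kb from the Myocd body on its upstream side and had the Myocd start as the nearest protein-coding gene start. The shared region chr7:74216712-74217748, with scores of 144.48 and 293.56, lay 159 kb from Mef2a, and Lysmd4 was nearer. The third was at chr8:72525291-72525974, with scores of 174.08 and 335.49, 151 kb from Mef2b and nearest to Gatad2a. Nothing was added for Mef2c, Mkl1 or Mkl2, and the wider window of Srf held 1 S4 peak.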
